A study of Homo sapiens with 10 samples.

Results

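The 10 genes NEDD4L, ALPK2, MALT1, ZNF532, SEC11C, GRP, RAX, CPLX4, LMAN1 and CCBE1 lie side by side on human chromosome 18, band 18q21, and were examined here as a neighbourhood. They were chosen by symbol and position around ALPK2 and MALT1, which were picked because their signal was far higher with doxycycline in these same arrays. The fold changes of the 10 genes are therefore a description and carry no test. Each gene had 1 probe set, so they are 10 of the 17492 genes with a name among 18569 probe sets.

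RNA of A375 cells, an established human skin melanoma line with an activating BRAF mutation, was measured on 10 Affymetrix Clariom S arrays. In the doxycycline group (5 arrays) the cells were plated with doxycycline at 2 µg/ml and frozen on day 4, and in the control group (5 arrays) they were plated without it. The series title names Omomyc, a MYC-derived protein that interferes with MYC, and the labels used here describe neither its construct nor whether the control cells carry it. None of these 10 arrays is labelled as doxycycline on cells without Omomyc, so doxycycline and Omomyc cannot be told apart, and nothing says whether the replicates were separate cultures, so the spread may be technical in part.

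Levels are log2 values after RMA, a method that corrects background, equalises the arrays and sums up the probes of a set. Array medians lay between 5.02 and 5.10 and first quartiles between 2.80 and 2.94, and probe sets near or under that first quartile are called dim below. Levels of different probe sets cannot be set against each other, so the genes are not ranked by level. The lineage markers MITF (8.33 ± 0.07 with doxycycline and 7.12 ± 0.07 in control, SD, n = 5), SOX10 and S100B had high signal, whereas the pigment genes PMEL, MLANA, TYR and TYRP1 were dim in both groups. A change in every cell and a change in some of the cells cannot be told apart in RNA of a whole culture.

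MALT1 is a paracaspase, a protease and scaffold that joins BCL10 and a CARD protein in the signalling complex that leads from antigen receptors and other receptors to the transcription factor NF-kB, and it is fused to BIRC3 in a class of lymphomas of mucosa-associated tissue. ALPK2 is an atypical protein kinase of the alpha-kinase family, and in zebrafish it takes part in heart development. The other neighbours have unrelated roles, in ubiquitin ligation (NEDD4L), transcription (ZNF532), secretion (SEC11C, LMAN1), peptide signalling (GRP), eye development (RAX), synaptic release (CPLX4) and lymphatic growth (CCBE1). In RefSeq gene order no other protein-coding gene stands among them, although 18 other entries do, including antisense RNAs named for ALPK2 and MALT1. Whether the probe sets tell these from the genes themselves was not tested.

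The promoters of ALPK2 and MALT1 are shown first because both genes were strongly higher with doxycycline and stand next to each other on opposite strands. ALPK2 lies on the minus strand and MALT1 on the plus strand, so they are transcribed away from each other. Their promoter windows, each 250 bases before to 50 after the annotated start in RefSeq (GRCh38.p14), are 41873 bases apart. The ALPK2 window is chr18:58629042-58629341 on the minus strand and the MALT1 window chr18:58671215-58671514 on the plus strand. Capitals mark every CG dinucleotide.
ALPK2: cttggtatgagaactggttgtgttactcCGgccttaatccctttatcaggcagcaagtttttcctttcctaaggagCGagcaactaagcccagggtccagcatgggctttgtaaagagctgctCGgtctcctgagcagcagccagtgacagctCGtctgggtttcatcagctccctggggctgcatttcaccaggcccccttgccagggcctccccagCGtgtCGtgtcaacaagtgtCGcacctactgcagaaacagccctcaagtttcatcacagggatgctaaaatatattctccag
MALT1: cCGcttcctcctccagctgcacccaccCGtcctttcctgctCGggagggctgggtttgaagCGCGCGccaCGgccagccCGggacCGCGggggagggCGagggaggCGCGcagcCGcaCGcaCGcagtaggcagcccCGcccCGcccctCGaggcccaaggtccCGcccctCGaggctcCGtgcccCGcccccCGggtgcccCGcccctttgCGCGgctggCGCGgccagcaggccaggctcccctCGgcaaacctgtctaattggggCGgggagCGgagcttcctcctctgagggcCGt
The ALPK2 window held 7 CG dinucleotides and was 53.3% G and C, against 33 CG dinucleotides and 76.0% in the MALT1 window. Over 15843 protein-coding promoters of the same length the median was 22 CG dinucleotides, and the quartiles of G and C content were 54.0% and 70.3%. The ALPK2 window thus has few CG dinucleotides and a G and C content just under the first quartile, and the MALT1 window has many and lies above the third.

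The 10 windows were searched on both strands for the E-box CACGTG (bound by MYC with MAX and by MITF), for the MITF M-box TCATGTG, for the AP-1 site TGACTCA, for the TATA box TATAAA and for the NF-kB consensus. None of these motifs occurred in the windows of ALPK2, MALT1, NEDD4L, ZNF532, RAX, CPLX4 or CCBE1. The E-box was found in SEC11C, at bases -42 to -37 from the start, and 8.88% of protein-coding promoters hold it. The TATA box was found in GRP, at bases -29 to -24, with 9.63% of protein-coding promoters holding it. LMAN1 held a pair of overlapping matches to the NF-kB consensus within bases -81 to -71, against 6.36% of protein-coding promoters with a match. These letters are a description of 1 annotated start per gene, and genes such as NEDD4L and ZNF532 have many transcripts. The matched windows of SEC11C (chr18:59139634-59139933, plus strand) and GRP (chr18:59219908-59220207, plus strand) read as follows in the same build, with the E-box and the TATA box in capitals.
SEC11C: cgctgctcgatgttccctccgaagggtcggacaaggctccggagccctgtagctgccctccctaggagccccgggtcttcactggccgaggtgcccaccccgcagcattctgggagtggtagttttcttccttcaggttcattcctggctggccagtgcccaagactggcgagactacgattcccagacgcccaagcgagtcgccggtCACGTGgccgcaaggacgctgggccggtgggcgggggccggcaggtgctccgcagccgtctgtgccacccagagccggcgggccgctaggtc
GRP: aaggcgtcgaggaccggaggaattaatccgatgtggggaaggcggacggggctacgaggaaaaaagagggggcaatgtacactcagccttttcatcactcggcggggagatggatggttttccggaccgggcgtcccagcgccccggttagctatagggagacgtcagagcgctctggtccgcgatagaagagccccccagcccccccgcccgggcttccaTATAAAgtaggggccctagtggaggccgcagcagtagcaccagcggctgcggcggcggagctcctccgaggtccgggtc

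ALPK2 had log2 levels of 8.28, 8.30, 8.27, 8.42 and 8.56 on doxycycline arrays 1 to 5, against 4.91, 4.70, 5.11, 5.07 and 4.76 on control arrays 1 to 5. The groups stood far apart, since the lowest doxycycline array exceeded the highest control array by 3.15 log2 units. The means were 8.37 ± 0.12 with doxycycline and 4.91 ± 0.18 in control (SD, n = 5 each), a log2 fold change of 3.45 ± 0.10 (SE), or 11-fold. Its fold change was the 3rd highest of 18569 probe sets, the value for which it was picked.

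MALT1 had log2 levels of 9.22, 9.54, 9.64, 9.77 and 9.57 on doxycycline arrays 1 to 5, against 6.86, 7.03, 7.0, 7.08 and 6.75 on control arrays 1 to 5. Here too the groups did not overlap, with 2.14 log2 units between the lowest doxycycline and the highest control array, and doxycycline array 1 was the low one of its group. The means were 9.55 ± 0.20 with doxycycline and 6.95 ± 0.14 in control (SD, n = 5 each), a log2 fold change of 2.60 ± 0.11 (SE), or 6.08-fold. Over the 10 arrays ALPK2 and MALT1 were highest on different doxycycline arrays (5 and 4) and lowest on different control arrays (2 and 5), and 5 arrays per group are too few to relate the genes within a group.

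The genes on either side of this pair differed little between groups. NEDD4L, a HECT-type ubiquitin ligase that removes the epithelial sodium channel from the membrane, lies next to ALPK2. It had log2 levels of 8.36, 8.70, 8.98, 8.48 and 8.80 with doxycycline, against 8.80, 8.92, 8.75, 9.0 and 8.86 in control. The control arrays fell within the spread of the doxycycline arrays except for array 4, and the log2 fold change was -0.20 ± 0.11 (SE).

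ZNF532, a zinc finger protein that works in a chromatin complex with ZNF592, ZNF687 and ZMYND8, lies next to MALT1. Its log2 levels were 8.36, 8.32, 8.41, 8.37 and 8.42 with doxycycline, against 8.13, 8.25, 8.10, 8.24 and 8.12 in control. The groups did not overlap, but only 0.07 log2 units lay between them. The log2 fold change was 0.21 ± 0.07 (SE), or 1.15-fold. Its call was lost without control array 1, 3 or 5 and without doxycycline array 3, 4 or 5, with fold changes of 0.19 to 0.21.

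Of the secretory genes SEC11C was called and LMAN1 was not. SEC11C, a catalytic subunit of the signal peptidase that trims secreted proteins, had log2 levels of 3.72, 3.86, 3.72, 3.73 and 3.71 with doxycycline, against 3.84, 4.04, 4.26, 4.15 and 4.02 in control. Doxycycline array 2 lay above control array 1, the other 4 doxycycline arrays lay below all controls, and the log2 fold change was -0.31 ± 0.09 (SE). LMAN1, the cargo receptor that carries coagulation factors V and VIII out of the endoplasmic reticulum, had log2 levels of 9.89, 10.11, 10.09, 10.13 and 10.20 with doxycycline, against 9.85, 9.89, 9.91, 9.93 and 9.86 in control. Only doxycycline array 1 fell among the controls, and the log2 fold change was 0.19 ± 0.08 (SE), or 0.24 without that array, where LMAN1 was called.

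The remaining 4 genes gave overlapping groups. GRP, the gastrin-releasing peptide of the bombesin family, had log2 levels of 3.52, 3.68, 3.51, 3.41 and 3.32 with doxycycline, against 3.34, 3.21, 2.94, 3.54 and 3.35 in control. CCBE1, a secreted protein that helps activate the lymphatic growth factor VEGFC, had 5.72, 5.13, 5.65, 5.17 and 5.11 with doxycycline, against 5.34, 5.23, 5.11, 5.41 and 5.50 in control. Doxycycline arrays 1 and 3 were the high ones for CCBE1, and the log2 fold changes were 0.21 ± 0.11 for GRP and 0.04 ± 0.13 for CCBE1 (SE). RAX, a homeodomain factor of the developing eye, was dim on every array, with levels of 2.00 to 2.79 with doxycycline and 2.21 to 2.86 in control. CPLX4, a complexin of retinal synapses, had levels of 3.03 to 3.37 with doxycycline and 2.94 to 3.19 in control, close to the first quartile. No detection values were used here, so whether RAX and CPLX4 were above background was not tested.

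**Figure D1:**
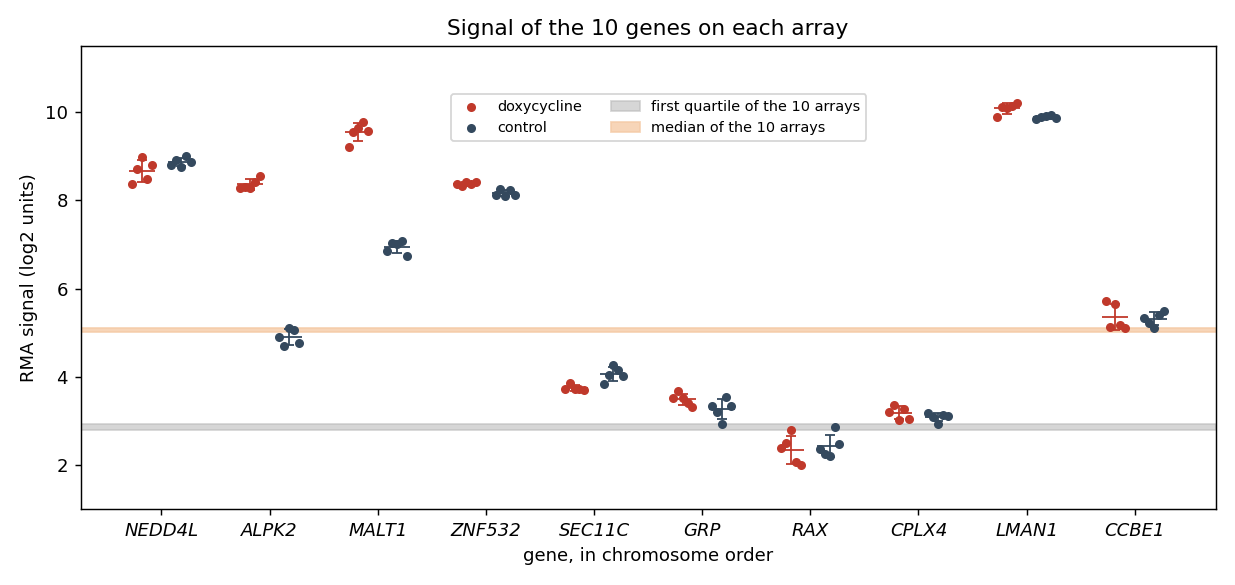
RMA signal (log2 units) of the 10 genes in chromosome order, with 1 point per array, doxycycline left of control, and the mean and SD (n = 5) as lines. ALPK2 at 8.27 to 8.56 and MALT1 at 9.22 to 9.77 with doxycycline stand above their controls at 4.70 to 5.11 and 6.75 to 7.08, and RAX lies near or under the first quartile of the arrays.

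The model across all probe sets (limma, Benjamini-Hochberg adjusted p under 0.05) called 38.1% of all probe sets, 20.9% as higher and 17.2% as lower with doxycycline. Of the 10 genes it called 4, namely ALPK2, MALT1 and ZNF532 as higher and SEC11C as lower, and the count lay between 3 and 5 when single arrays were left out. This share is near the share of all probe sets, and nothing is read from it because the contrast chose the genes. A call with a change of at least 1 log2 unit upward was made for 2.43% of all probe sets and for ALPK2 and MALT1 here. The groups did not overlap for ALPK2, MALT1 and ZNF532, against 28.6% of all probe sets. The median log2 fold change of the 8 genes other than ALPK2 and MALT1 was 0.06, beside 0.04 over all probe sets.

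**Figure D2:**
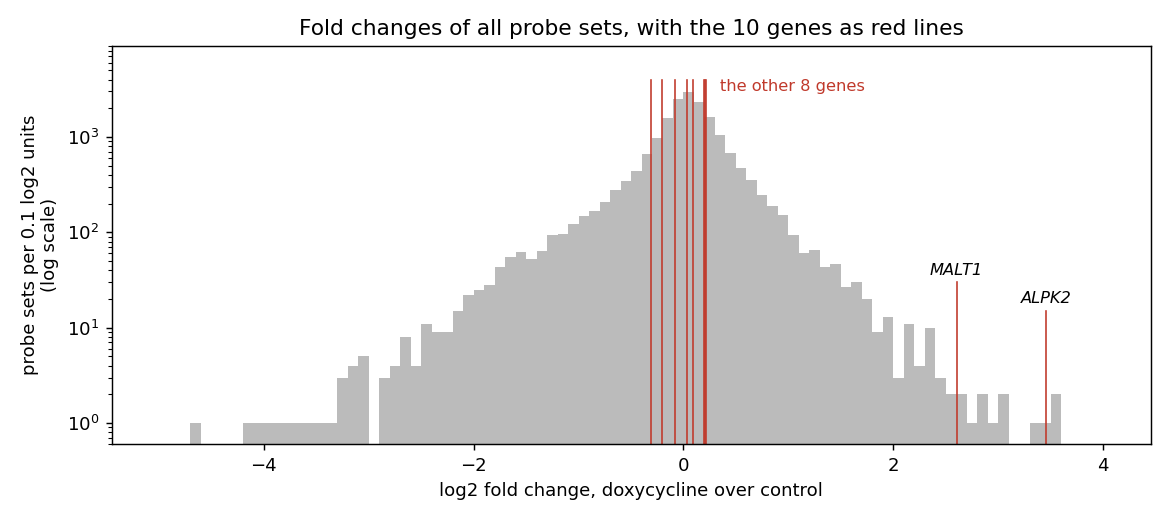
Number of probe sets (log scale) by log2 fold change of doxycycline over control in steps of 0.1, for all 18569 probe sets, with the 10 genes as red lines. ALPK2 at 3.45 and MALT1 at 2.60 lie in the upper tail, and the other 8 lie between -0.31 and 0.21.

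Along the chromosome, no other measured gene rose as much as the pair, which was picked for its large rise. Among the 235 other measured protein-coding genes of chromosome 18, 0 had a log2 fold change of 2 or more. Over all 17492 genes 42 did, ALPK2 and MALT1 among them, so 0 of 235 is near the overall share. The next highest on the chromosome was SLC14A2, a urea transporter gene, at 1.60 ± 0.10 (named after its value was seen). Of these 235 genes 53 were called higher and 45 lower, together 41.7%, with a median log2 fold change of -0.00. The 10 measured genes before NEDD4L held 3 called higher and 1 called lower, and the 10 after CCBE1 held 4 called higher and 3 called lower. Together 55.0% of these 20 were called, beside 38.1% of all probe sets. Among probe sets above the median signal, tested alone, 6 of 9 of these genes and 5586 of 9285 probe sets were called.

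On the NEDD4L side, the transcription factor gene TCF4 rose by 0.55 ± 0.08 (SE, limma, adjusted p = 3.29e-05), WDR7, which binds the proton pump of vesicles, by 0.55 ± 0.10 (adjusted p = 2.90e-04), and the lipid flippase gene ATP8B1 by 0.36 ± 0.11 (adjusted p = 0.0152). ATP8B1, the gene nearest to NEDD4L, was dim, at 2.61 ± 0.20 with doxycycline and 2.25 ± 0.14 in control (SD, n = 5). NARS1, the asparaginyl-tRNA synthetase, fell by 0.53 ± 0.10 (adjusted p = 5.40e-04). CCDC68, TXNL1, BOD1L2, ST8SIA3, ONECUT2 and FECH did not pass, with log2 fold changes of -0.09 to 0.18.

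On the CCBE1 side, PMAIP1 (NOXA), which promotes cell death, had levels of 6.30 ± 0.12 with doxycycline and 7.06 ± 0.09 in control, a log2 fold change of -0.76 ± 0.08 (limma, adjusted p = 3.77e-06). The survival gene BCL2, at the far end of these 10, fell as well, with 4.71 ± 0.16 with doxycycline and 5.56 ± 0.29 in control (-0.85 ± 0.13, adjusted p = 8.16e-05), and ZCCHC2 fell most, by 1.43 ± 0.14 (adjusted p = 1.34e-06). Higher with doxycycline were MC4R, a melanocortin receptor that was dim in both groups (0.97 ± 0.11, adjusted p = 2.99e-06), RELCH (0.63 ± 0.12), PHLPP1, a phosphatase that acts on AKT (0.53 ± 0.12), and RNF152 (0.44 ± 0.11), with adjusted p values of at most 0.00633 for the last of these. CDH20 (0.24), PIGN (0.26) and TNFRSF11A (0.37, adjusted p = 0.0528) did not pass. TNFRSF11A, the receptor RANK, was called without control array 1 (adjusted p = 0.0157) and without doxycycline array 2 (adjusted p = 0.00564). With all arrays kept, it was called with a block for replicate number and under 3 other alternatives (adjusted p of 0.0376 to 0.0485). Calls in both directions are common among all probe sets (20.9% higher and 17.2% lower), so nothing is read from finding both among the flanking genes.

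**Figure D3:**
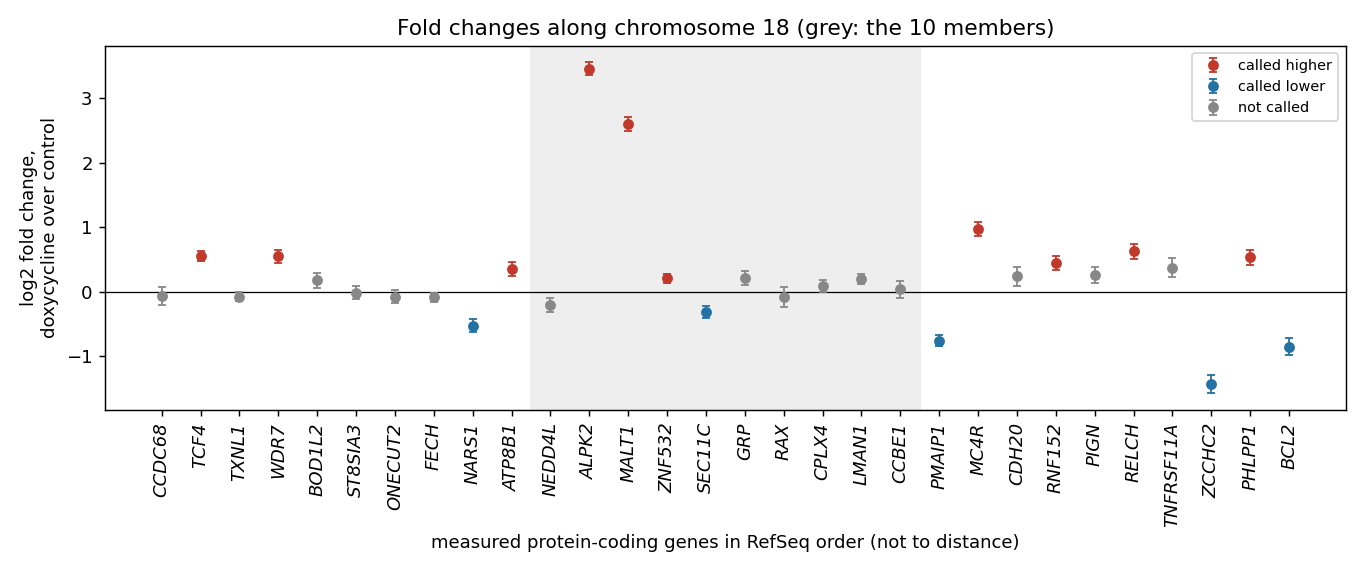
Log2 fold change of doxycycline over control with its SE for the 10 genes (grey band) and the 10 nearest measured protein-coding genes on each side, in RefSeq order and not to distance. ALPK2 and MALT1 rise to 3.45 and 2.60, whereas the 20 flanking genes lie between -1.43 and 0.97.

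The partners and relatives of the 10 genes were not used to choose them, but their lists were drawn up with earlier results of these data known. Over 13 lists, 21 of 92 measured genes were called higher and 13 lower, 37.0% in all, beside 38.1% of all probe sets. The lists' median log2 fold changes are given beside that of all probe sets, 0.04. Their counts of calls stand beside 20.9% of all probe sets called higher and 17.2% called lower.

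In the MALT1 signalling complex and its route to the IkB kinases, 3 of 20 genes rose and 4 fell, with a median of 0.08. BCL10, the direct partner of MALT1, had 5.41 ± 0.23 with doxycycline and 5.32 ± 0.14 in control and did not pass (0.09 ± 0.11, adjusted p = 0.574). The CARD scaffold genes CARD9 (-0.13), CARD10 (0.10) and CARD14 (0.12) did not pass either. PRKCQ, protein kinase C theta, which starts this route in T cells, fell by 1.09 ± 0.12 (adjusted p = 2.28e-06), IKBKB, a kinase of the IkB proteins, by 0.54 ± 0.09 (adjusted p = 2.41e-04), and RBCK1, a subunit of the linear ubiquitin ligase, by 0.51 ± 0.10 (adjusted p = 5.85e-04). TAB2, an adaptor of the kinase MAP3K7, rose by 0.58 ± 0.08 (adjusted p = 4.91e-05). Smaller calls were lost when 1 array was left out, namely PRKCD (-0.32, adjusted p = 0.0539 without control array 3), TAB3 (0.37, adjusted p = 0.0557 without control array 3 and 0.0512 without control array 5) and MAP3K7 (0.23, adjusted p up to 0.0771, without control array 2, 4 or 5 or doxycycline array 3 or 5).

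Of 8 measured genes whose proteins MALT1 is known to cut, 4 rose and 1 fell, with a median of 0.37. Over all probe sets 38.1% were called. All 8 genes lay above the median signal, and among such probe sets, tested alone, 5586 of 9285 were called. The count is near that share, and nothing is read from it. The NF-kB inhibitor TNFAIP3 (A20) had 8.26 ± 0.07 with doxycycline and 7.35 ± 0.13 in control, a rise of 0.90 ± 0.08 (SE, adjusted p = 5.49e-07). The deubiquitinase CYLD (0.64 ± 0.10), the RNA-binding RC3H1 (Roquin, 0.61 ± 0.09) and N4BP1 (0.58 ± 0.10) also rose, with adjusted p values of at most 3.15e-04, and RBCK1 was the one that fell. RC3H2 (0.01), BCL10 and RELB (0.16) did not pass. These are RNA levels and say nothing of cleavage.

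Among NF-kB subunits and IkB genes 5 of 9 rose and 0 fell, with a median of 0.27, beside 20.9% of all probe sets called higher. REL, a subunit prominent in lymphocytes, rose by 0.73 ± 0.10 (adjusted p = 4.57e-05). The IkB genes NFKBIA (0.63 ± 0.12), NFKBIE (0.55 ± 0.11) and NFKBIZ (0.54 ± 0.10) rose as well, with adjusted p values of at most 9.70e-04. RELA rose by 0.27 ± 0.09, a call lost without control array 1 (adjusted p = 0.0632), control array 3 (adjusted p = 0.0563) or doxycycline array 5 (adjusted p = 0.0526). NFKB1 had a log2 fold change of -0.22 and did not pass (adjusted p = 0.0640), but was called lower without control array 1 (adjusted p = 0.0179) and under 4 alternatives that kept all arrays (adjusted p of 0.0294 to 0.0497).

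MALT1, REL and BCL10 are prominent in lymphocytes, so leukocyte markers were read beside them. Of 5 markers 3 rose, beside 20.9% of all probe sets called higher. LYZ rose most, by 1.44 (8.31 ± 0.25 with doxycycline and 6.87 ± 0.28 in control). CD14, dim in control (3.34 with doxycycline and 2.82 in control), and CD79A (3.71 with doxycycline and 3.27 in control) rose less. The summed log2 signal of the 5 markers was 19.5 to 21.0 on doxycycline arrays and 17.0 to 18.3 on control arrays. The other 2, PTPRC (2.07 with doxycycline and 2.15 in control) and CD3E (2.67 with doxycycline and 2.75 in control), were dim in both groups and did not pass. All 4 fibroblast markers rose, with summed signals of 19.9 to 20.5 on doxycycline arrays and 16.1 to 17.4 on control arrays, and 1 of 5 keratinocyte and 0 of 4 endothelial markers were called (limma, with 2 and 2 at an unadjusted p under 0.05). Of 7 melanocyte lineage markers 3 rose and 0 fell, namely MITF (1.21 ± 0.08, SE), S100B (0.26) and the dim TYR (0.23). The part of all these marker genes in the result was not tested.

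Of the 4 other alpha-kinase genes analysed here 2 fell and 2 did not pass, with a median of -0.82. TRPM7, an ion channel fused to an alpha-kinase, had 4.44 ± 0.16 with doxycycline and 6.51 ± 0.15 in control, 4.21-fold lower (-2.08 ± 0.10, adjusted p = 7.62e-10). EEF2K, which slows protein synthesis by phosphorylating elongation factor 2, had 4.60 ± 0.25 with doxycycline and 6.19 ± 0.22 in control, 3.01-fold lower (-1.59 ± 0.13, adjusted p = 1.46e-07). ALPK3 (-0.05) and TRPM6 (-0.03), near or below the first quartile, did not pass.

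**Figure D4:**
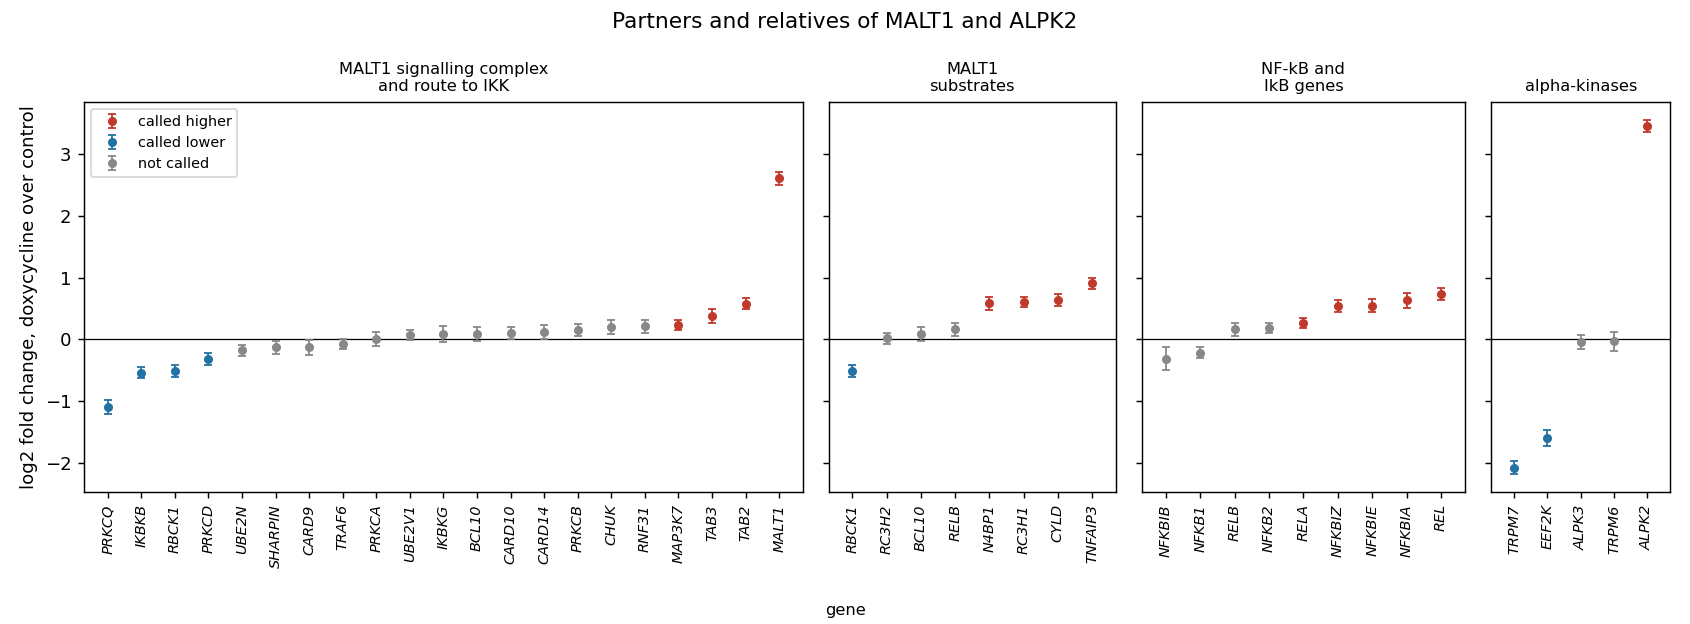
Log2 fold change of doxycycline over control with its SE for MALT1 and its signalling partners, MALT1 substrates, NF-kB and IkB genes, and the alpha-kinase genes with ALPK2. MALT1 at 2.60 and ALPK2 at 3.45 lie above all genes drawn beside them, and TRPM7 at -2.08 is the lowest.

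Beside 38.1% of all probe sets, 2 of 10 ligases and adaptors of the NEDD4L family were called. SMURF1 rose (0.26 ± 0.08, adjusted p = 0.0188) and SMURF2 fell (-0.34 ± 0.08, adjusted p = 0.00374), with a median of 0.08. The ligase gene ITCH did not pass (0.32, adjusted p = 0.119) but was called without doxycycline array 1 (0.49, adjusted p = 2.18e-04), and so was WWP1 (0.23, and adjusted p = 0.0259 without that array). With all arrays kept, ITCH was called with array weights (adjusted p = 0.00648) and WWP1 under 3 alternatives (adjusted p of 0.0294 to 0.0462). Among 9 substrates and regulators 3 rose and 1 fell. SGK1, the kinase that inhibits NEDD4L, rose by 0.81 ± 0.09 (adjusted p = 3.93e-06), the sodium channel subunit SCNN1A by 0.56 ± 0.11 (adjusted p = 9.70e-04) and SMAD2 by 0.36 ± 0.08 (adjusted p = 0.00313). TGFBR1 fell by 0.31 ± 0.11 (adjusted p = 0.0381), a call lost without any single array other than doxycycline array 4 (adjusted p of 0.0549 to 0.0766) and with array medians subtracted (adjusted p = 0.0588).

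In the signal peptidase complex of SEC11C, 1 of 4 other subunits fell, the paralogue SEC11A, with 10.1 ± 0.06 with doxycycline and 10.4 ± 0.11 in control (-0.27 ± 0.08, adjusted p = 0.0127). SPCS1 (-0.15), SPCS2 (-0.21) and SPCS3 (-0.20) did not pass, although SPCS2 was called without doxycycline array 1 (adjusted p = 0.0198) and with array weights (adjusted p = 0.0174), and SPCS3 under 3 alternatives that kept all arrays (adjusted p of 0.0216 to 0.0359). Of 6 genes around LMAN1, its cargo F8, coagulation factor VIII, fell by 1.46 ± 0.17 (adjusted p = 4.90e-06). The partner MCFD2 (-0.02), the cargo F5 (-0.07) and the lectins LMAN1L (-0.01), LMAN2 (0.16) and LMAN2L (0.31) did not pass. LMAN2L was called without doxycycline array 4 (0.40, adjusted p = 0.0417).

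Around the low-signal genes, 0 of 4 bombesin-like genes and 0 of 6 eye field genes were called by limma, with 0 and 0 at an unadjusted p under 0.05. GRPR, the receptor of GRP, was dim, at 2.60 ± 0.19 with doxycycline and 2.55 ± 0.17 in control. NMB (0.16), NMBR (0.17) and BRS3 (-0.00) did not pass, nor did RAX2 (-0.16), PAX6 (0.10), SIX3 (0.08), SIX6 (-0.08), LHX2 (-0.12) and OTX2 (0.10). Among 8 complexin and SNARE genes 2 rose and 3 fell. SNAP25, a SNARE of vesicle fusion, had 5.22 ± 0.31 with doxycycline and 3.05 ± 0.29 in control (2.17 ± 0.16, adjusted p = 3.56e-08), and VAMP2 rose by 0.49 ± 0.10 (adjusted p = 0.00124). STX1A (-1.23 ± 0.11), the calcium sensor SYT1 (-0.77 ± 0.09) and CPLX1 (-0.33 ± 0.11) fell, with an adjusted p of 0.0258 for CPLX1, whose call was lost without control array 2 or doxycycline array 1, 3 or 4 (adjusted p of 0.0511 to 0.0732).

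Beside CCBE1, at a log2 fold change of 0.04 ± 0.13, 2 of 4 genes of the same route rose. VEGFC, the growth factor that CCBE1 helps to activate, had 7.80 ± 0.06 with doxycycline and 7.08 ± 0.23 in control (0.72 ± 0.10, adjusted p = 4.78e-05). KDR, a receptor of VEGFs, had 6.88 ± 0.22 with doxycycline and 5.70 ± 0.22 in control (1.18 ± 0.12, adjusted p = 1.92e-06). FLT4, the main receptor of VEGFC, and ADAMTS3, the protease that cuts it, were dim in both groups (-0.10 and 0.03). Of 3 partners of ZNF532, ZMYND8, a reader of histone marks, rose by 0.48 ± 0.08 (adjusted p = 1.86e-04), and ZNF592 (0.01) and ZNF687 (0.16) did not pass.

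Genes with the most similar pattern were found by the root mean square difference of log2 values over the 10 arrays, each gene centred on its own mean, which is a description and is set mainly by the size of the group difference. Nearest to ALPK2 were TMEM255A (0.19 log2 units), the vitamin B12 carrier gene TCN1 (0.24), the neural adhesion genes CNTN1 (0.24) and CHL1 (0.28), and RANBP3L (0.29). Nearest to MALT1 were the microtubule protein gene MAP7 (0.15), TRIML2 (0.18), the hyaluronan-binding CEMIP (0.19), the adhesion molecule CEACAM1 (0.21) and fibronectin, FN1 (0.22). ALPK2 and MALT1 differed from each other by 0.46, with MALT1 the 10th nearest gene to ALPK2 and ALPK2 the 59th nearest to MALT1.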

How the data were processed

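The deposited values are log2 expression values per probe set made with RMA by the authors, per the submitters' processing notes, and neither the RMA version nor its library file or filters are stated there. Quantile normalization within RMA hides changes of total RNA per cell. Probe sets took their symbol from the platform annotation, updated through gene IDs in RefSeq for GRCh38.p14 (17511 with 1 symbol, 0 with several, 1058 unnamed here), and 17 genes with more than 1 probe set were represented by the brightest. Doxycycline was compared with control by limma 3.58.1 in R 4.3.3 (lmFit, eBayes, group as the only term, two-sided, Benjamini-Hochberg adjustment over 18569 probe sets, called at adjusted p under 0.05), which was tested on simulated data. Errors are moderated SEs for log2 fold changes and SDs for levels, with a median SE of 0.103, and the number of arrays limits precision.

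The members, the gene lists and the rule for named genes were chosen with earlier results of these data known. The rule named all members, up to 6 called genes of each list (all in lists of 7 or fewer), 10 flanking genes per side and the 5 nearest profiles, and other genes were named after their values were seen. Same-numbered arrays of the groups did not deviate together (correlations of -0.44 to -0.01), so replicate numbers were not treated as pairs. Alternatives were a replicate block, leaving out each array, filters on dim probe sets, other scalings, another variance model and array weights. Promoter sequences are RefSeq's for GRCh38.p14, found for all 10 members.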

Additional observations from a re-analysis of the deposited data

Results flagged for a closer look

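SEC11C on doxycycline array 2 had a log2 level of 3.86, while the other 4 doxycycline arrays lay between 3.71 and 3.73. The gap took 0.873 of the range of the group, above 0.71, the limit of Dixon's test for 5 samples. It was the 1 sample standing apart among 20 groups tested (10 genes in 2 groups), and chance sets apart about 1 in 20. The log2 fold change of SEC11C was -0.31 with that array and -0.34 without it.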

How the results depend on the processing

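The 165 recomputed fold changes of the 10 genes under 17 alternatives moved by less than the spread between replicates, with 3.40 to 3.51 for ALPK2 and 2.55 to 2.68 for MALT1, which were called in every setting. SEC11C was called in every setting that kept it, ZNF532 in 11 of 18 and LMAN1 in 6 of 18, among them array medians subtracted (0.23) and array weights (0.22). With 1 array left out, the number of members called ranged from 3 to 5, of listed partner genes from 30 to 35, of flanking genes on chromosome 18 from 11 to 12 and of probe sets from 6378 to 7237. With the replicate number as a block, 6476 probe sets, 3 members, 31 partner genes and 12 flanking genes were called. The numbers did not pair the samples. Under the block ZNF532, RELA (adjusted p = 0.0657), MAP3K7 (adjusted p = 0.0581) and TGFBR1 (adjusted p = 0.0539) were not called, and TNFRSF11A was (adjusted p = 0.0378). Among probe sets above the median signal 6 of 9 flanking genes were called, beside 5586 of 9285 such probe sets. Without the filter 11 of 20 flanking genes were called, and the count is lower with it since fewer genes were tested. Of the other named genes' recomputed fold changes 1954 stayed on the same side of the threshold, 28 lost a call and 25 gained one. Uncalled genes such as ALPK3, ADAMTS3, F5 and SIX3, and the members CCBE1 and RAX changed sign when single arrays were left out. RAX, near or under the first quartile, may lie at background, which limits what its values show.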
